A study of Homo sapiens with 2 samples.

Results

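The S100 genes encode small calcium-binding proteins, and 9 of them were read here by gene name in single cells of the lung adenocarcinoma line A549: S100A2, S100A4, S100A6, S100A10, S100A11, S100A13, S100A14, S100A16 and S100P. All 9 were found once each among the 33538 genes of the count matrix. The cells carried a Cas9 under a doxycycline-inducible promoter (the study's design text names tamoxifen instead) and received a lentiviral pool of gRNAs, 100 against 25 target genes and 20 that target no gene, at 0.3 viruses per cell. After selection with puromycin, Cas9 was induced for 2 days and the cells grew for 5 days more, so every group shared the Cas9 line, the vector, puromycin and the inducer. A transcriptome library and a gRNA library were made from the same cDNA of this single cell pool, and UMIs, molecules told apart by a random tag, were counted in 5744 cells. Cells with exactly 1 gRNA above 3 UMIs formed the groups: 696 Non-Targeting control cells and 2493 cells in target pools, of which 22 pools held at least 40 cells (44 to 190). Target pools can hold edited and unedited cells side by side. The paper reports that some cells first called with a single intact gRNA carried a mutant one, and that such gRNAs seem to lack function. With 1 cell pool the groups have no replicates. All intervals given are exact 95% intervals that cover counting error only, and no p-values are given.

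In total 210519208 transcriptome UMIs were counted, a median of 34625 per cell (513 to 161719), and 427 cells had fewer than 10000. Of 10 markers of lung epithelium and A549, the epithelial keratins KRT8 and KRT18 had a UMI in 99.4% and 99.7% of cells. KRT19 was found in 84.0%, AGR2 in 72.6% and EPCAM in only 13.8%. The lung markers NKX2-1, SFTPB, SFTPC and SFTPA1 were found in at most 0.505% of cells and SCGB1A1 in 0. At least 3 of 6 fibroblast markers were seen in 1 cell, and at least 3 immune or endothelial markers in 0 cells, which allows a share of up to 0.0642%. Single markers of these lists were more frequent. The immune marker CD14 was found in 20.6% of cells and the fibroblast markers COL1A1 and LUM in 10.5% and 5.99%. The others were found in at most 0.487%. At least 3 of 8 markers of HEK293T, a line widely used to make lentivirus, were seen in 140 cells (2.44%). Of the 8, INA had a UMI in 41.9% of cells, NEFL in 23.0%, LHX2 in 8.76% and POU4F1 in 4.33%, and CRH, NEFM, SOX11 and DPPA4 in at most 0.522%. The part of such cells in the results was not tested.

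S100 proteins work as dimers. When calcium binds to their paired EF hands, a helix swings out and opens a groove that grips a partner protein, so they act as calcium-dependent adaptors and have no enzyme activity. S100A10 is the exception, since its EF hands no longer need calcium and it stays bound to annexin A2 at the plasma membrane. Most S100 genes lie in a cluster within the epidermal differentiation region of chromosome 1, S100P lies elsewhere, and many of them vary with epithelial state and in carcinomas, lung adenocarcinoma among them.

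Since DNMT1, the enzyme that copies DNA methylation at CG dinucleotides to the new strand, was among the targets, the CG content of the member promoters is given first. The 250 bases before the RefSeq start were read on GRCh38.p14 for all 9 members, 13 windows in all, and CG dinucleotides are in capitals. S100P is shown because it was furthest from control in the DNMT1 pool, and S100A10 as an abundant member with a promoter rich in CG. Both windows end at the base before the RefSeq start.
S100P, chr4:6693628-6693877, plus strand: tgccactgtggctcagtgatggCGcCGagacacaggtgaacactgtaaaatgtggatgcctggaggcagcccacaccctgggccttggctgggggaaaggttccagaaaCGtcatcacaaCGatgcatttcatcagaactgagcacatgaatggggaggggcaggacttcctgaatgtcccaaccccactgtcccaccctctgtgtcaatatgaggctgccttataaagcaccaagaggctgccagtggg
S100A10, chr1:151993860-151994109, minus strand: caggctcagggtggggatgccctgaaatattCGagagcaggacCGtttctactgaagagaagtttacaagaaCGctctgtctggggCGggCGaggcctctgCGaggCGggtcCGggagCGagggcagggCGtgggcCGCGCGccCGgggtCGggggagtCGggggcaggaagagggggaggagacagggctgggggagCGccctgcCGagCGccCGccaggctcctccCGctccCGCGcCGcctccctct

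The S100P and S100A14 windows each held 4 CG dinucleotides, a number that 34.3% of all 35116 promoter windows of the same length did not exceed. The windows of S100A10 and S100A6 held 24 each, and 23.7% of all windows held as many or more (median 11, quartiles 3 and 23). The S100A11 window held 15 and that of S100A4 held 7. Among members with several starts, S100A13 had 15, 10 and 8, S100A16 had 1 and 6, and S100A2 had 4 and 3. The letters TATAAA, the core of the TATA box, began 28 bases before the start of S100P, 31 before S100A4 and 29 before one of the S100A13 starts, and 10.7% of all windows held them on either strand. DNA methylation itself was not measured.

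The S100 transcripts were abundant in these cells, and 4 of the 9 genes made up nearly all of them. Summed over all cells, the members had 11624 UMIs per 1000000 (CPM), or 1.16% of the transcriptome, and S100A6, S100A4, S100A10 and S100A11 held 94.9% of it. Each UMI stands for the 3′ end of a transcript, so these levels need no division by gene length. S100A6, which binds the ubiquitin ligase adaptor CACYBP (calcyclin-binding protein), was at 4662 CPM (4653 to 4671), rank 22 of all genes, with a median of 142 UMIs per cell. S100A4, a partner of non-muscle myosin that is linked to cell movement and metastasis, was at 2532 CPM (2525 to 2538). S100A10 was at 2073 CPM (2066 to 2079) and S100A11, which binds annexin A1, at 1769 CPM (1764 to 1775). Each of these 4 had a UMI in at least 98.3% of cells, and their intervals did not overlap.

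S100A16, a broadly expressed member, was at 298 CPM (296 to 301) and S100A13, which takes part in the export of proteins without a signal peptide, at 260 CPM (258 to 262), in 96.4% and 95.5% of cells. S100A2, which was named a candidate tumour suppressor, was at 15.5 CPM (14.99 to 16.1) and S100P, a ligand of the receptor AGER and a partner of ezrin, at 14.3 CPM (13.8 to 14.9). At nearly the same level, S100A2 had a UMI in 35.0% of cells (33.8 to 36.3%) and S100P in 22.7% (21.6 to 23.8%). S100A14, also described as an AGER ligand, had 21 UMIs in 21 cells (0.0998 CPM). No cells that should lack these genes were in the pool, so the share of UMIs from free RNA was not measured.

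**Figure D1:**
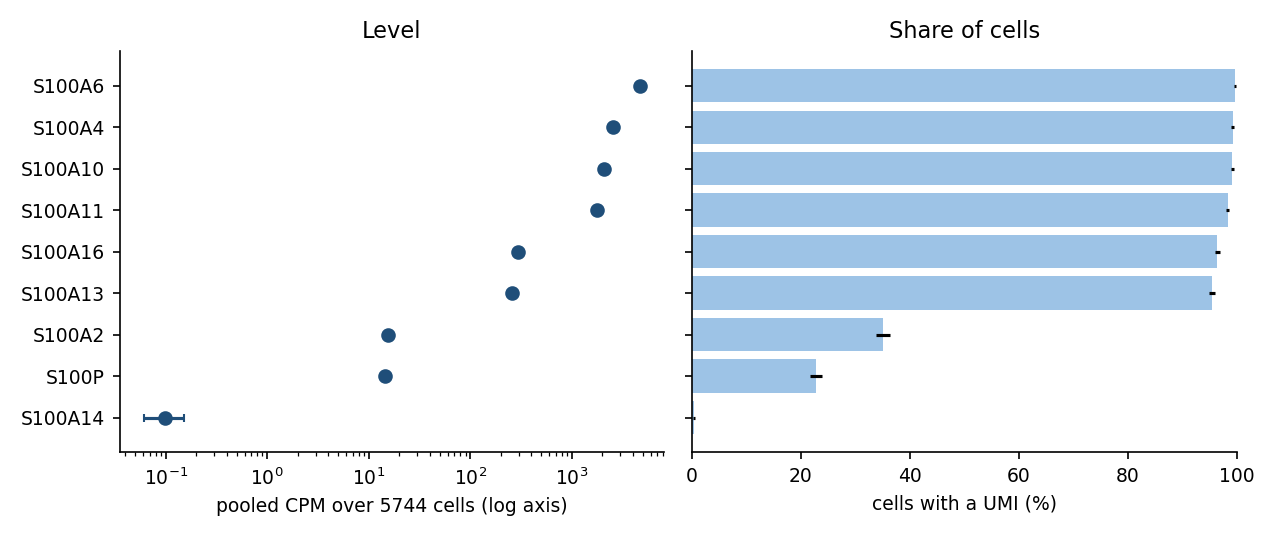
Level of the 9 S100 genes as pooled CPM over all cells on a log axis (left) and share of cells with a UMI in percent (right), with exact 95% intervals for counting error, many of them smaller than the points. S100A6 at 4662 CPM and S100A14 at 0.0998 CPM mark the ends, and S100P is in fewer cells than S100A2 at nearly the same level.

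Neighbouring S100 genes differed widely in level. On GRCh38, 8 members lie on the minus strand of chromosome 1 within 1648 kb, from S100A10 (chr1:151982915-151993859) and S100A11 (chr1:152032506-152047907) to S100A13 (chr1:153618787-153631360), and S100P lies on the plus strand of chromosome 4 (chr4:6693878-6697170). S100A14, near silence, lies between S100A16 and S100A13, 1109 and 1800 bases from these neighbours, which were both found in over 95.5% of cells. S100A2 lies 10971 bases from S100A4 and was at 15.5 CPM beside 2532. S100A3, no member, lies within the span of S100A4 (chr1:153543613-153550136) without overlapping its exons. S100A13 shares exonic sequence with a second gene model on its own strand, so its count is less certain. On the other strand, S100A13 overlaps exons of S100A1, and S100A6 overlaps those of an antisense gene. Whether overlaps on the other strand affect the counts was not tested.

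Most levels were close to each other in cells with 0, 1 or more gRNAs. S100P was at 14.0, 14.7 and 13.6 CPM in them and S100A6 at 4614, 4690 and 4698. S100A4, at 2511, 2561 and 2392 CPM, and S100A11, at 1776, 1776 and 1673, were somewhat lower in cells with more than 1 gRNA. In the 427 cells under 10000 UMIs, levels were lower, with S100A11 at 813 CPM beside 1779 in deeper cells and S100A4 at 1324 beside 2544, while S100A16 was at 286 beside 299.

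Of the other S100 genes, S100A3 was at 68.4 CPM in 72.3% of cells. S100A5 had 145 UMIs, S100A1 had 48 and S100A9 had 9. S100A8, S100B, S100G, S100A7A and S100A7L2 had no UMI, which allows up to 0.0175 CPM. Of the fused-type S100 genes, large proteins of the hair and skin barrier, TCHH had 141 UMIs. The binding partners of the S100 proteins ranged from abundant to rare. ANXA2, the partner of S100A10, was at 3072 CPM and ANXA1, the partner of S100A11, at 925. Ezrin (EZR), which links actin to the membrane, was at 198 CPM, CACYBP at 171, the scaffold proteins AHNAK and IQGAP1 at 161 and 135, and MYH9, the heavy chain of non-muscle myosin, at 108. SUGT1, a co-chaperone, was at 61.1 CPM, SPTAN1, a spectrin of the membrane skeleton, at 61.0, SYT1, a calcium sensor of vesicle fusion, at 51.4 and the phosphatase PPP5C at 34.2. DLC1, a GTPase-activating protein, was at 5.72 CPM and the myosin MYH14 at 2.95. The receptor AGER (0.803 CPM) and the S100A13 cargoes FGF1 (0.190 CPM) and IL1A (3 UMIs) were rare.

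To compare cells at equal depth, the 5317 cells with at least 10000 UMIs were each thinned to 10000. The Fano factor, the variance over the mean, is 1 where only counting scatters. S100P varied far more between cells than most genes of its level. Its Fano factor was 2.00, rank 17 of 2807 genes within 1.5-fold of its mean, whose median was 1.03. S100A2, at nearly the same mean, had 1.08, rank 362 of 2790. Among the abundant members, S100A6 had 7.28 (rank 5 of 31), S100A4 6.14 (rank 5 of 58), S100A10 5.21 (rank 9 of 64) and S100A11 3.16 (rank 18 of 58). S100A16 had 1.47 (rank 99 of 351) and S100A13 had 1.26 (rank 168 of 407), so S100A13 lay near the middle of its like. S100A3 had 1.40, rank 84 of 1423.

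Over all cells as counted, S100P was absent from 4441 cells, had 1 UMI in 692 and 2 in 258. The 145 cells with at least 5 UMIs, 2.52% of the cells, held 37.3% of all S100P UMIs, and the highest cell had 25. The 1% of cells with the most S100P held 20.2% of its UMIs, while the same share was 10.2% for S100A2 and 4.27% for S100A4.

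**Figure D2:**
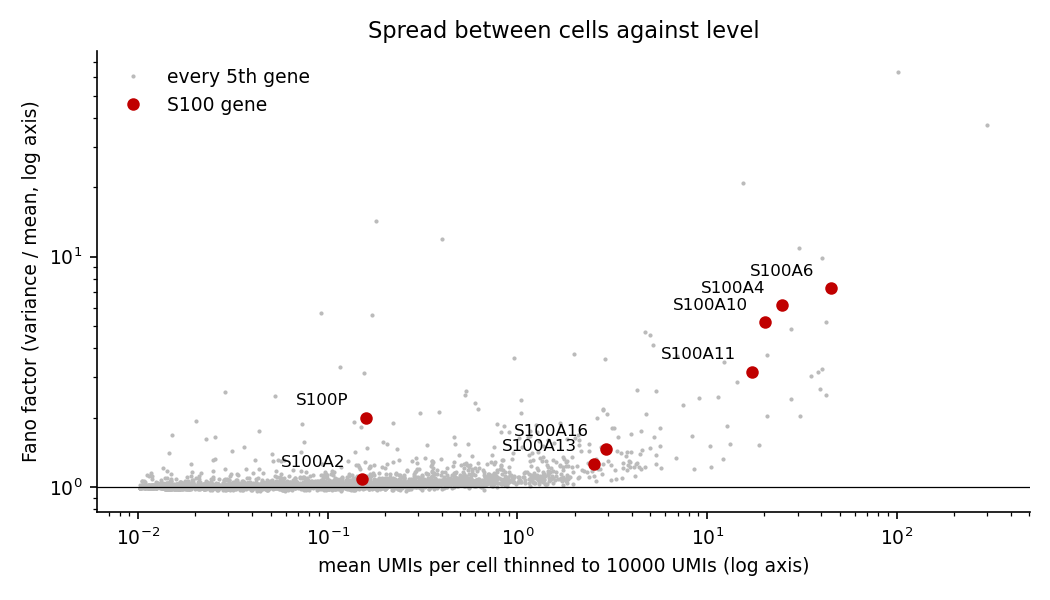
Fano factor against mean UMIs per cell for S100 genes (red) and every 5th gene (grey) in 5317 cells thinned to 10000 UMIs, both axes logarithmic, with a line at 1. S100P at 2.00 lies above S100A2 at 1.08 at nearly the same mean.

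The abundant S100 transcripts varied together from cell to cell. Pearson r of log2(1 + UMIs) over the thinned cells was 0.40 for S100A10 and S100A11, 0.37 for S100A4 and S100A11, 0.36 for S100A4 and S100A6, 0.35 for S100A6 and S100A11, 0.31 for S100A6 and S100A10 and 0.28 for S100A4 and S100A10. Of the 28 pairs of 8 members (S100A14 was in too few cells), 25 were above 0, with a median of 0.099. The share of pairs above 0 over all genes, or over genes of like level, was not computed. The S100A16 transcript went most with S100A10 (0.25) and S100A13 with S100A11 (0.20). S100A2 and S100P are sparse, and every r of theirs with another member was weak, between -0.05 and 0.08. The highest were 0.081 for S100P and S100A4 and 0.070 for S100A2 and S100A16, above most of the r that these genes had with other genes, of which the middle 95% ended at 0.047 for S100P and at 0.042 for S100A2. Sparse genes give r nearer 0, and these r were not set against genes of like level. All cells share a library, so these values are descriptions.

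Transcripts other than S100 also moved with these genes. Among 7128 other genes in at least 10% of thinned cells, S100A11 was most like MYL6, a myosin light chain (0.52), CD63, a tetraspanin of lysosomes (0.40), and ANXA2 (0.40). S100A10 was most like the keratins KRT18 (0.39) and KRT8 (0.37) and then MYL6 (0.35). S100A6 was most like the ferritin light chain FTL (0.34), the keratin KRT19 (0.33) and the thioredoxin TXN (0.33). S100A4 was most like KRT19 (0.32), the NADPH oxidase subunit CYBA (0.30) and the aldehyde dehydrogenase ALDH3A1 (0.30). For each of these 4 genes, the median r over all the other genes lay between -0.0054 and 0.0015. S100A11, the lowest of the 4, ranked 86 among all genes by level, so nearly all of the other genes were sparser. Counting scatter draws r of sparse genes toward 0, so this median is no scale for abundant genes. No genes of like level were set beside these values. S100A16 was most like C12orf75 (0.26), the tropomyosin TPM1 (0.20) and JPT1 (0.20), and S100A13 like MYL6, CD63 and KRT8, with MYL6 at 0.18. The highest values were 0.17 for S100P, with ALDH3A1 before the protease CTSL and the aldo-keto reductase AKR1C1, and 0.13 for S100A2, with the intermediate filament VIM before MT2A and TPM1, and at such sparse counts they are weak.

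**Figure D3:**
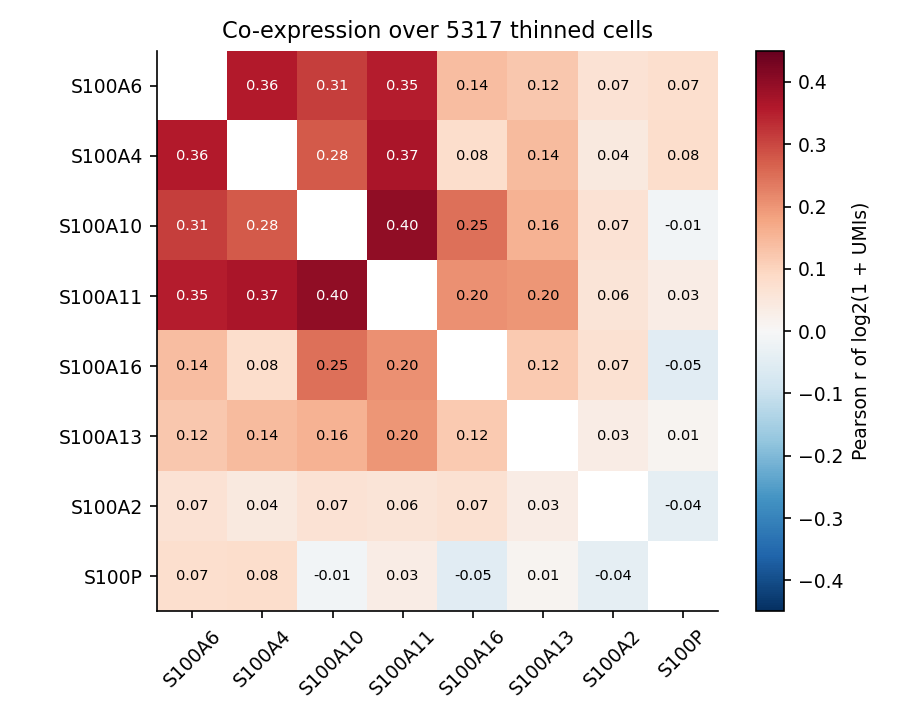
Pearson r of log2(1 + UMIs) for each pair of 8 S100 genes over 5317 cells thinned to 10000 UMIs, ordered by level. The block of S100A6, S100A4, S100A10 and S100A11 runs from 0.28 to 0.40, and the rows of S100A2 and S100P stay between -0.05 and 0.08.

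With the summed UMIs of gene lists, S100A10 had its highest r with 15 epithelial genes (0.47) and S100A11 with 12 annexins (0.44). By rank correlation S100A11 went more with the epithelial genes (0.28) than with the annexins (0.24). Such sums follow their most abundant genes, among the annexins ANXA2 (mean of 30.8 UMIs) and ANXA1 (9.07). S100A11 had an r of 0.40 with ANXA2 and 0.26 with ANXA1. With the other annexins in at least 10% of thinned cells its r lay between 0.009 and 0.15. Both S100A11 and S100A10 also rose with the mesenchymal list. There r was 0.28 for S100A11 (rank correlation 0.24) and 0.22 for S100A10 (0.20). S100A4 was lower in cells with more G2/M transcripts (r -0.19). Its mean was 29.4 UMIs in the 10% of thinned cells with the fewest G2/M UMIs and 20.8 in the 10% with the most. S100P had a weak r of -0.10 with 15 mesenchymal genes, with means of 0.267 and 0.070 UMIs in the lowest and highest 10% of cells. The share of mitochondrial UMIs moved with the same S100 genes, with r -0.28 for S100A11, -0.28 for S100A6 and -0.22 for S100A10, as did depth before thinning, with r 0.27 for S100A6 and 0.26 for S100A11. In the 5213 cells with under 20% mitochondrial UMIs, S100A10 and S100A11 had an r of 0.37 and the median of the 28 pairs was 0.091. The part of depth in these relations was not tested.

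In cells with gRNAs to the target genes, the abundant S100 transcripts stayed near control. For each target pool, the level was divided by that in Non-Targeting cells after 1 CPM was added to both, and a gene was counted when the ratio was past limits of 25% above or 20% below control. A stricter count also asked that the pool held at least 2 gRNAs with at least 10 cells and that each of them lay on the same side. As a check, the targets' own transcripts were lower than control in 20 of 24 pools where they had UMIs in control cells. The median log2 ratio of the 24 was -0.34, and they include DNMT3A, DNMT3B and TRMT112, each with under 40 cells. Some of the lower values were within counting error of control, such as HAT1 (98.1%, 84.6 to 113%) and UHRF1 (74.4%, 46.0 to 115%). Others were below it, such as DEK (75.1%, 70.4 to 80.2%) and TRIM28 (71.6%, 65.2 to 78.5%). The 6 members with at least 1000 UMIs in control cells, S100A4, S100A6, S100A10, S100A11, S100A13 and S100A16, gave 132 ratios in the 22 pools, of which 0 were past the limits on either side, beside 1.07% higher and 2.46% lower over all genes with as many UMIs, and 0.769% and 2.11% under the stricter rule. At such small shares few of 132 ratios would be past the limits in any set of genes, so 0 is near the share over all genes. The lowest of the 6 members, S100A13, ranked 474 among all genes by level, while the comparison set held 2884 genes. Most of that set was therefore less abundant and scatters more in counting. The log2 ratios of the 6 members lay between -0.27 and 0.30. S100A11 had the narrowest range, from -0.04 in the ATAD2 pool to 0.15 in the CHEK1 pool, with 18 of 22 pools above 0. S100A10 had 17 above 0 and reached 0.21 in the KAT2B pool. All pools were set against the same control cells, so these ratios are not independent and a low control alone would put most of them above 0. S100A4 ran from -0.27 (DNMT1) to 0.30 (RPL18), S100A6 from -0.23 (TUBB1) to 0.16 (HELLS), S100A16 from -0.25 (DNMT1) to 0.19 (MVD) and S100A13 from -0.27 (UHRF1) to 0.23 (DHODH).

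The spread between control gRNAs gives a scale for these values. When single control gRNAs, the 15 that at least 10 cells carried, were set against the remaining control cells, log2 ratios ran from -0.57 to 0.31 for S100A4, from -0.25 to 0.37 for S100A6, from -0.46 to 0.17 for S100A10, from -0.19 to 0.17 for S100A11, from -0.18 to 0.30 for S100A13 and from -0.45 to 0.43 for S100A16. Single gRNAs have fewer cells than most pools, so these ranges are wide. S100A10 in 3 pools, with KAT2B the highest, and S100A13 in the UHRF1 pool lay outside them. For S100A2 the range was -0.98 to 0.82, and for S100P -1.71 to 1.35.

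All the counted changes were in S100A2 and S100P, which have 200 to 800 UMIs in control cells. Over the 8 members with at least 50 UMIs in control cells, 5 of 176 ratios were past the upper limit and 8 past the lower, beside 7.48% and 10.5% over all such genes, and under the stricter rule 1 was higher and 5 lower, beside 4.25% and 7.48%. S100A2 and S100P gave 44 of these ratios, so 11.4% of theirs were higher and 18.2% lower, beside 6.26% and 9.7% over all genes with 200 to 800 control UMIs. Under the stricter rule the shares were 2.27% and 11.4%, beside 4.02% and 7.3%. S100A14 had 1 UMI in control cells and was not counted, and a loss of it was not detectable at this depth. It had at most 2 UMIs in any of the 22 pools, whose intervals ended at 2.80 CPM or lower.

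**Figure D4:**
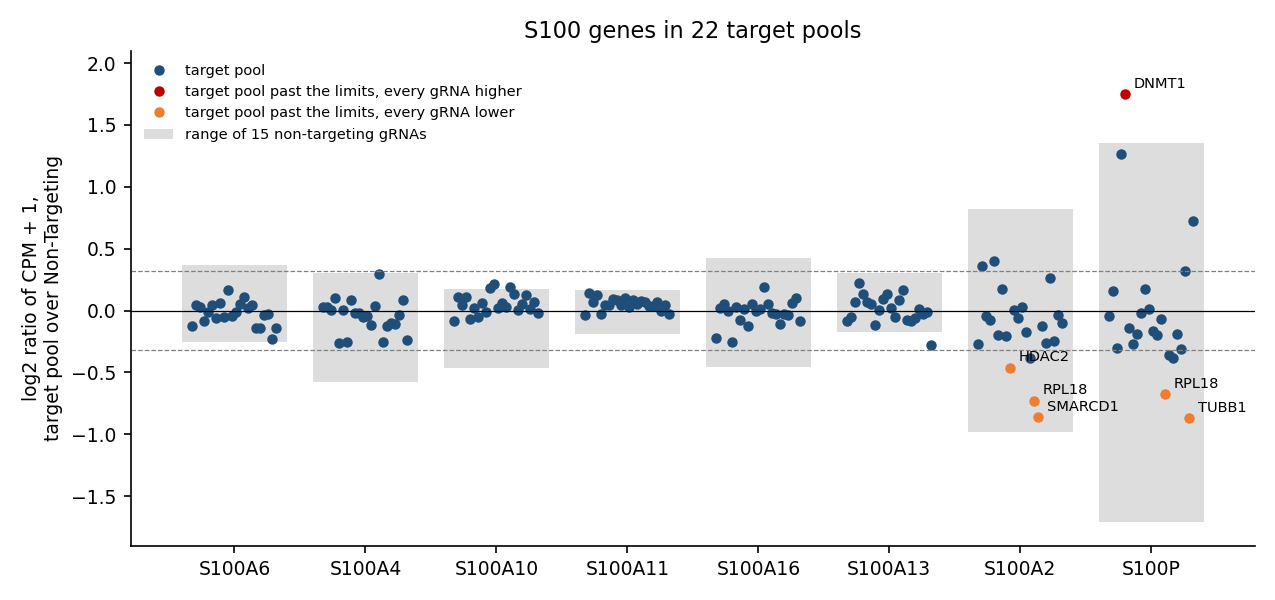
Log2 ratio of CPM + 1 in each of 22 target pools (points) over Non-Targeting cells for 8 S100 genes ordered by level, with the range of 15 single non-targeting gRNAs (grey bars) and the limits of 25% above and 20% below control (dashed). S100P in the DNMT1 pool, at 1.75, lies above the range of the control gRNAs, which ends at 1.35.

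S100A2 was lower than control in 3 pools under the stricter rule. Control cells had 16.1 CPM (14.6 to 17.7). With gRNAs to SMARCD1, a subunit of the SWI/SNF chromatin remodelling complexes, S100A2 had 27 UMIs in 86 cells, or 8.41 CPM, 52.2% of control (34.0 to 77.1%). The gRNAs with at least 10 cells gave 6.72, 10.5 and 9.03 CPM, all below control, and 6.73% of genes with at least 50 control UMIs were lower in this pool under that rule. With RPL18 gRNAs it had 17 UMIs, or 9.32 CPM (57.9%, 33.4 to 93.9%), beside 19.6% of genes lower in that pool. With gRNAs to the histone deacetylase HDAC2 it had 77 UMIs in 182 cells, or 11.4 CPM (71.0%, 54.9 to 90.8%), with all 4 gRNAs below control and 3.83% of genes lower. None of the 3 pools was below the range of the single control gRNAs. Past the limits but with gRNAs on both sides, S100A2 was at log2 ratios of 0.36 in the CHEK1 pool, 0.40 in the DNMT1 pool and -0.38 in the PCGF5 pool.

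S100P was lower in 2 pools under the stricter rule and higher in 1. In control cells it was at 14.6 CPM (13.2 to 16.2), and in single control gRNAs from 3.91 to 36.9 CPM, with a median of 12.7. With gRNAs to TUBB1, a tubulin with no UMI in these control cells, S100P had 28 UMIs in 93 cells, or 7.56 CPM (51.7% of control, 33.9 to 76.0%), and a UMI in 11.8% of cells beside 23.4%, with 11.3% of all genes lower in that pool under the rule. With RPL18 gRNAs it had 16 UMIs, or 8.77 CPM (60.0%, 33.9 to 98.7%). It was past the upper limit, with gRNAs on both sides of control, in the pools of DHODH, an enzyme of pyrimidine synthesis (36.5 CPM), and of UHRF1, which brings DNMT1 to newly copied DNA (24.8 CPM), and at log2 ratios of -0.36 and -0.38 in those of SMARCD1 and SUV39H1. In the smaller pools of the other DNA methyltransferases, DNMT3A (20 cells) and DNMT3B (35 cells), S100P was at 9.89 CPM from 7 UMIs and 7.35 CPM from 8.

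In the DNMT1 pool, S100P had 136 UMIs in 82 cells, or 51.5 CPM (43.2 to 60.9), which is 352% of control (287 to 430%) and a log2 ratio of 1.75. DNMT1 itself was at 69.1% of control in these cells. Of the 11553 genes with at least 50 UMIs in control cells, 4.48% were higher in this pool with every gRNA on that side, and S100P had the 5th highest ratio of all of them. Its gRNAs gave 38.8 CPM (gRNA2, 11 cells), 55.9 CPM (gRNA3, 11 cells) and 52.9 CPM (gRNA4, 60 cells), ranks 4, 1 and 2 among the 83 gRNAs with at least 10 cells, of which UHRF1_gRNA2 was the 3rd at 41.7 CPM. The control gRNA CTRL00484 followed at 36.9 CPM. S100P in the DNMT1 pool was picked out for reading beforehand, so these ranks describe the pair and do not test it.

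Cells with several S100P UMIs were more frequent in the DNMT1 pool. A UMI of S100P was found in 29 of the 82 cells (35.4%, 25.1 to 46.7%) beside 23.4% of control cells (20.3 to 26.7%), and at least 5 UMIs in 12 cells (14.6%, 7.80 to 24.2%) beside 17 of 696 (2.44%, 1.43 to 3.88%). After thinning to 10000 UMIs, which left out 6 and 46 cells, the shares with a UMI were 22.4% (13.6 to 33.4%) and 10.3% (8.08 to 12.9%). With gRNA3, 20 of the 26 UMIs came from 1 cell, and without it the level was 14.1 CPM, just below the 14.6 CPM of all control cells, so that not every gRNA then lay above control. With gRNA2, 8 of the 14 UMIs came from 1 cell, and without it the level was 18.3 CPM, rank 8 of the 83 gRNAs when each loses its highest cell. With gRNA4 it was then 46.8 CPM, rank 1. In the DHODH pool, 3 of 44 cells held 64.6% of the UMIs. Next, the 5% of cells with the most S100P UMIs, rounded up to whole cells, were left out of pool and control. This took 5 of 82 DNMT1 cells, 3 of 44 DHODH cells, 4 of 65 UHRF1 cells and 35 of 696 control cells. The pools thus lost a slightly larger share than control. Control cells were then at 7.57 CPM (6.50 to 8.77). The DNMT1 pool was then at 29.2 CPM (22.9 to 36.8), a log2 ratio of 1.82, the DHODH pool at 14.4 CPM (8.42 to 23.1) and the UHRF1 pool at 11.8 CPM (7.79 to 17.2). The DNMT1 interval lay above that of control, and those of DHODH and UHRF1 overlapped it. By the same step the TUBB1 pool was at 2.29 CPM (0.990 to 4.52), below the control interval. The RPL18 pool was at 5.81 CPM (2.79 to 10.7), which overlapped it.

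**Figure D5:**
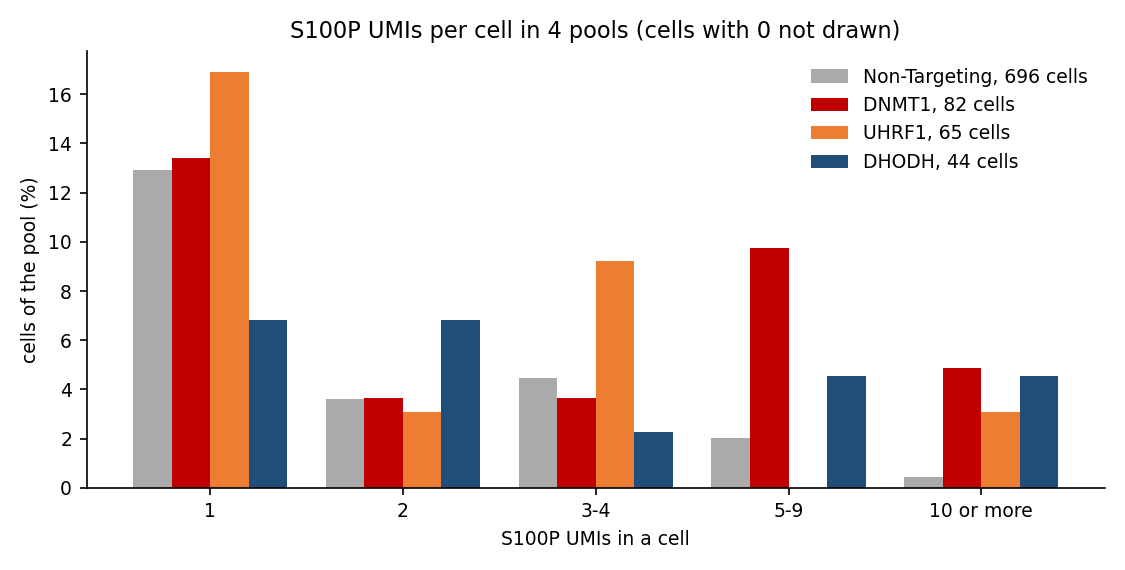
Share of cells of each pool, in percent, by the number of S100P UMIs in the cell, for Non-Targeting, DNMT1, UHRF1 and DHODH cells, with cells at 0 not drawn. In the DNMT1 pool 14.6% of cells have at least 5 UMIs, beside 2.44% of Non-Targeting cells, and cells with 1 UMI are about as frequent in both.

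S100P was highest in the cells that also had germline transcripts, genes that DNA methylation normally keeps silent outside the germline. UMIs of at least 3 of 16 such genes, among them MAGEA4, DAZL and VCX, were found in 18 of all cells, 14 of them with DNMT1_gRNA4, 2 in the UHRF1 pool, 2 with several gRNAs and 0 in the other groups. The 14 cells with DNMT1_gRNA4 held 67 S100P UMIs, with at least 1 in 11 of them, or 147 CPM (114 to 187). The other 46 cells with this gRNA had 29 UMIs in 8 cells, or 21.3 CPM (14.3 to 30.6), an interval that overlaps that of control cells. In the UHRF1 pool, the 2 cells with germline transcripts had 18 S100P UMIs, or 268 CPM (159 to 424), and the other 63 cells had 17.9 CPM (12.9 to 24.2). In all 68 other cells of the DNMT1 pool S100P was at 31.6 CPM (24.6 to 39.9), which includes the single cell with 20 UMIs.

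The other members differed by less than S100P between these cells and the rest. In the 14 cells with DNMT1_gRNA4 and germline transcripts S100P was at 6.90 times its level in the other 46 cells. Of the 7 other members with enough UMIs, 5 were higher, and the share of all genes that were higher was not computed. S100A2 was at 35.1 CPM beside 22.05, S100A10 at 2470 beside 1668, S100A6 at 5362 beside 4094, S100A13 at 343 beside 262 and S100A11 at 1891 beside 1614, ratios of 1.17 to 1.59. The 2 lower members were S100A4, at 1937 CPM beside 2186, and S100A16, at 209 beside 251. The 46 cells were themselves low for some of the 5 higher members. In the 3042 cells with 1 gRNA outside the DNMT1 and UHRF1 pools, S100A10 was at 2068 CPM, S100A6 at 4697 and S100A11 at 1780. S100A13 was at 259 CPM there, close to the 46 cells, and S100A2 at 15.4, below them. Cells were grouped here by transcripts they held, so these are descriptions of few cells. S100A14 had 1 UMI in the whole DNMT1 pool, 0.379 CPM (0.0096 to 2.11). Whether the CG content of the promoters goes with the levels in this pool was not tested.

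Genes tied to the S100 proteins by function were counted in the same pools by the same limits. Of 308 ratios of 14 binding partners, 4.55% were higher and 6.49% lower, of 242 ratios of 11 annexins 9.09% and 5.79%, and of 242 ratios of 11 other EF-hand calcium sensors 2.89% and 2.07%, beside 7.48% and 10.5% over all genes. Among the partners, DLC1 was furthest from 0, with 76 UMIs and a log2 ratio of 2.08 in the SUV39H1 pool, though not on 1 side in every gRNA, and then MYH14, with 1 UMI and -1.38 in the DNMT1 pool. Among the annexins these were ANXA9, with 0 UMIs in the DNMT1 pool beside 52 in control cells, and ANXA13, at 0.77 in the HDAC1 pool, and among the calcium sensors EFHD2, at -0.77 in the DHODH pool, and GCA, at 0.73 in the MVD pool. The RPL18 pool had 5 of 14 partners lower, ANXA1, CACYBP, EZR, DLC1 and PPP5C, all of them with every gRNA on that side, and 0 higher. Over all genes, 22.2% were lower in this pool, 19.6% with every gRNA on that side. S100A3 was lower in the DHODH pool (50.9 CPM) and higher in the TUBB1 pool (93.4 CPM) than in control cells (68.8 CPM). The median ratio of all genes in a pool lay between -0.07 and 0.02 on the log2 scale.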

How the data were processed

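UMI counts per gene and per gRNA were used as deposited: the authors had counted both libraries with Cell Ranger 3.1.0 against GRCh38 and kept the called cells, and the counts are whole and not normalized. Which gene annotation was used is not given in the sources used here. All 5744 cells were kept. gRNAs were called above 3 UMIs, and the 286 cells with 2 or more were left out of pools, with no other search for doublets. Pool levels are summed UMIs as CPM, and ratios are differences of log2(CPM + 1), which understates changes of rare genes. Cells are not replicates, so no test was run. Intervals are exact (Poisson, conditional binomial or Clopper-Pearson, 95%), and depth per cell is given with the results. Thinning to 10000 UMIs used a fixed seed. The steps were tested on simulated data and run in Python 3.11.15 with NumPy 2.4.6, SciPy 1.17.1, pandas 2.3.3, scikit-learn 1.9.0 and matplotlib 3.10.9. Gene positions are from GENCODE 44 and promoters from RefSeq. The members and gene lists were chosen with earlier results of these data known. Named were all members, other S100 and fused-type genes with at least 50 UMIs, the 3 genes most like each member, all binding partners (1 is not reported here), each member and pool past the stricter rule, and the 2 genes of each list furthest from 0. Other genes and pools beyond that rule were named after their values were seen.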

Additional observations from a re-analysis of the deposited data

How the results depend on the processing

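S100P stayed above control in the DNMT1 pool in each setting run, with log2 ratios of 1.32 with 10 CPM added, 1.06 without cells with at least 3 germline genes, 1.24 without the pool's 3 highest cells, 1.82 without the 5% highest cells of pool and control, and 1.66 to 1.80 when 1 gRNA was left out. The settings on germline genes, highest cells and mitochondrial UMIs were chosen after seeing the data. Leaving out 1 gRNA of UHRF1, S100P ran from -0.24, without gRNA2, to 1.27 in that pool, and it turned to -0.12 without the pool's 3 highest cells, and in the DHODH pool to -0.017. That step lowers the pool and leaves control as it is, and without the 5% highest cells of both the log2 ratios were 0.58 and 0.85. Counts of member ratios past the limits, 5 higher and 8 lower, were 3 and 4 both with 10 CPM added and at 1.5-fold, and 3 were higher without the germline cells. Leaving out 1 gRNA gave 3 to 6 higher and 6 to 10 lower. Under the stricter rule, 2 in place of 1 were higher with a call above 10 UMIs, with cells of at least 10000 UMIs or with means over cells, and leaving out 1 gRNA gave 0 to 2 higher and 3 to 7 lower. Counts of partners, 14 higher and 20 lower, were 4 and 13 with 10 CPM added and 5 and 8 at 1.5-fold. The members summed to 11671 CPM in cells of at least 10000 UMIs, 11034 as a mean over cells and 11665 in Non-Targeting cells. The Fano factor of S100P was 2.87 at 20000 UMIs and 2.40 in Non-Targeting cells. For S100A10 and S100A11, r was 0.44 at 20000 UMIs, 0.37 as a rank correlation, 0.51 without thinning and 0.37 under 20% mitochondrial UMIs, and for S100A4 and S100A6 0.32 as a rank correlation, 0.42 without thinning and 0.33 under 20%. No paired analysis was possible because 1 cell pool holds all groups.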
